A study of Mus musculus with 24 samples.

Results

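The genes described here encode the working parts of the lysosome, the acidic compartment in which macrophages break down engulfed cells, receptors, glycans and lipids. They comprise 12 hydrolases, 4 membrane proteins, 3 activator or other soluble proteins, 2 proteins of lipid export, 2 channels or transporters, 7 parts of the proton pump, and the transcription factor Tfeb. They were chosen by symbol, each symbol was matched to its mouse Ensembl ID in the deposited count table, and they make up 31 of its 55487 genes. All 31 were found, and 26 of them were among the 3938 genes counted as expressed in these samples. A gene counted as expressed had a mean of at least 10 CPM (counts scaled to the library total) over the tumors and at least 10 times the background expected for its exon length.

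Lysosomal hydrolases are tagged with mannose 6-phosphate in the Golgi and delivered by its receptors to endosomes that mature into lysosomes. The proton pump, or V-ATPase, moves protons into the lumen, and the acid that results activates most of the enzymes. TFEB and its relatives TFE3 and MITF bind an E-box in the promoters of many of these genes, and mTORC1 at the lysosomal surface keeps TFEB in the cytosol while nutrients are plentiful.

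The samples were macrophages, sorted by CD45, CD11b and F4/80, out of orthotopic MC38 tumors of C57BL/6J mice; MC38 is a mouse colon carcinoma line. The tumor cells lacked the tumor suppressor Apc in APC-KO tumors 1 and 2 and carried it in APC-WT tumors 1 and 2. The macrophages came from the host, whose Apc the labels do not describe as changed, so the genotype is that of the surrounding tumor cells. Whether the APC-KO line was 1 clone is not given in the sources used here. Each of the 4 tumors gave 6 libraries of an ultra low input protocol, 24 in all, and the labels call these replicates of one sample. The tumor was therefore the unit for the genotype, with 2 tumors each, and p-values between libraries measure only the spread within a tumor's RNA, which may be technical.

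The libraries of the 2 genotypes differed in composition. A library of APC-KO tumor 1 had 8895722 to 19328572 counts, one of APC-KO tumor 2 had 13464061 to 17196820, one of APC-WT tumor 1 had 74972634 to 93568353, and one of APC-WT tumor 2 had 28018638 to 46837543. Loci that resemble satellite repeats held 37.9% and 38.5% of the counts in APC-KO tumors 1 and 2, against 1.32% and 7.08% in APC-WT tumors 1 and 2. Expected background over all genes came to 17.6% and 17.9% of the counts in the APC-KO tumors, against 0.751% and 5.05% in the APC-WT tumors. The share of counts that fell on expressed genes was 33.1% in APC-KO tumor 1 and 31.7% in APC-KO tumor 2, against 81.6% in APC-WT tumor 1 and 73.6% in APC-WT tumor 2. For this reason levels are expressed as scaled CPM, that is, CPM with the TMM-scaled total of the expressed genes as the library size, and are means ± SD over the 6 libraries of a tumor. A pair of values given for a genotype is that of its tumor 1 and its tumor 2. The log2 change between genotypes followed transcript length across expressed genes, with a Spearman rho over 3938 genes of -0.567 (genes are not independent replicates). An offset by the length of the longest transcript brought it to -0.0143, and log2 changes below carry this offset unless stated otherwise, while scaled CPM do not. All 8 markers of macrophages and of the sort were expressed in the sorted cells, with summed levels of 20379 and 19539 scaled CPM in the APC-KO tumors and of 28699 and 25481 in the APC-WT tumors. In these bulk samples fewer cells of a type and less RNA per cell cannot be told apart. Depth and composition of the libraries differed along with the genotype, and their part in the changes below was not tested.

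The promoters of 26 of the 31 genes were found among the RefSeq promoters of GRCm38.p6, each covering 250 bases before and 50 bases after an annotated start. They were searched on both strands for TCACGTG, the core of the E-box bound by TFEB, which is contained in the longer form TCACGTGA. TCACGTG occurred in 7 of the 26 promoters (26.9%), against 1160 of 27025 genes with a promoter (4.29%). The 8-base form occurred in 2 of the 26 (7.69%), against 1.12% of all genes. The stretches that hold the E-box are given because they hold the element through which TFEB is known to act; capitals mark each match to TCACGTG or to its reverse complement, and each stretch is read 5′ to 3′ on the strand of its gene.
Lamp1 (chr8:13159087-13159163, plus strand): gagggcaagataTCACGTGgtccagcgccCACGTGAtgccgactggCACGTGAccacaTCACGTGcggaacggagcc
Mcoln1 (chr8:3500435-3500492, plus strand): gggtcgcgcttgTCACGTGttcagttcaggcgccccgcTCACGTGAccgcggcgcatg
Atp6v0b (chr4:117887330-117887378, minus strand): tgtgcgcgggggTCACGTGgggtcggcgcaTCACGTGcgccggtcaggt
Atp6v1a (chr16:44139372-44139403, minus strand): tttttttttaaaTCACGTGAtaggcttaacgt
Gaa (chr11:119267810-119267840, plus strand): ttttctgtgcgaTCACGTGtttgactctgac
Glb1 (chr9:114401017-114401047, plus strand): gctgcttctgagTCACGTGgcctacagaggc
Lgmn (chr12:102439124-102439154, minus strand): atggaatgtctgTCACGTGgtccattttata
Lamp1, the most abundant protein of the lysosomal membrane, held 4 copies within its stretch. Mcoln1 and Atp6v1a held the 8-base form, which reads as TCACGTG on both strands. A match describes these letters only, and binding was not measured here. As the map of E-box copies shows, all but those of Gaa and Atp6v1a lie between positions -72 and -10 from the RefSeq start site. In the gene annotation used for lengths (GENCODE M21) some starts differ. Lgmn there spans 102394084 to 102439813 and Atp6v1a 44085402 to 44139705, so both of these stretches lie inside the gene. Mcoln1 there starts at 3500457, within its stretch.

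**Figure D1:**
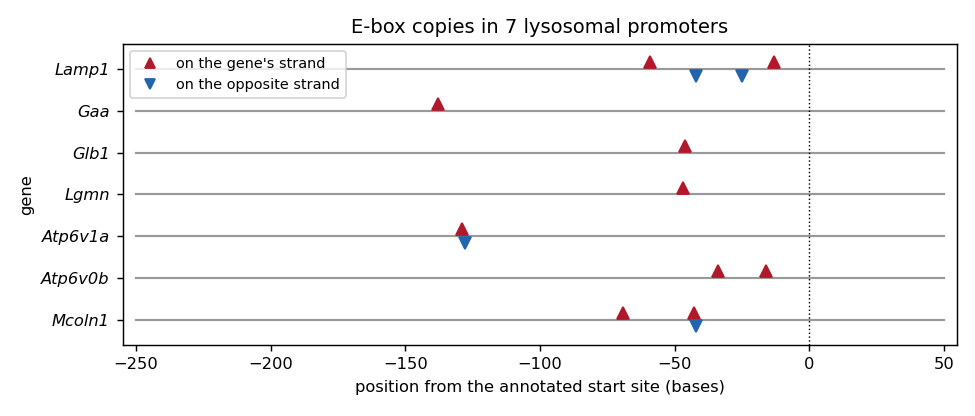
E-box copies (TCACGTG, either strand) in the 7 lysosomal promoters that hold one, by distance in bases from the RefSeq start site (dotted line at 0). Upward triangles mark copies on the gene's strand and downward triangles copies on the opposite strand; Lamp1 holds 4 copies, and the copies of Gaa and Atp6v1a lie farthest from the start.

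More lysosomal genes fell than rose in macrophages of APC-KO tumors. Of the 26 expressed members 11 fell and 4 rose at an adjusted p below 0.05 in edgeR's quasi-likelihood test on the summed counts of 2 APC-KO and 2 APC-WT tumors. Among all expressed genes 24.4% fell and 24.8% rose, against 42.3% and 15.4% of the members. The median log2 change of the members was -0.53, against -0.03 over all expressed genes. The limits for an expressed gene were set on the mean over the tumors, and 9 of the 26 met them in the APC-WT tumors but not in the APC-KO tumors taken alone, where expected background was over 10% of their level. Of these 9, 4 fell (Lamp2, Gaa, Lipa and Tpp1) and 1 rose (Atp6v1h). Of the 2358 expressed genes that met the limits in the APC-WT tumors alone, 24.3% fell and 24.7% rose. These 9 members entered the test through the APC-WT tumors, so the 4 falls are a description. Of the 17 that met the limits in each genotype 7 fell and 3 rose, against 25.5% and 23.6% of the 1518 expressed genes that did so. The limits also left out Npc1 and Tfeb, which read higher in the APC-KO tumors, and Manba and Ctns, which read lower. Less the expected background, Npc1 was still higher in both APC-KO tumors and Tfeb was not. Atp6v0d2, left out too, read below its expected background in the APC-KO tumors. The fall was led by Asah1, Lamp2, Tpp1, Lgmn and Atp6ap1, each at or beyond a log2 change of -1.05. Npc2 was the rise that passed with the longest transcript, with the principal isoform and without a length offset. Its longest transcript is its principal isoform, so both lengths were the same for Npc2. It did not pass with lower limits for expressed genes and a length curve of their own (adjusted p = 0.569). The members together held 1.69% ± 0.0272 and 1.73% ± 0.00609 of the counts of expressed genes in the APC-KO tumors, against 2.71% ± 0.00727 and 2.15% ± 0.0176 in the APC-WT tumors (SD, n = 6 libraries each). Leaving out APC-KO tumor 1 left Asah1, Lamp2, Tpp1 and Atp6ap1 as the 4 members that passed, and leaving out APC-KO tumor 2 left Asah1, Lamp2, Tpp1 and Lgmn; 0 members rose in either case by edgeR, with 3 and 4 higher at an unadjusted p below 0.05.

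The antigens of the sort fell as well, and their values stand beside those of the lysosomal genes. Itgam, which encodes CD11b, stood at 277 and 277 scaled CPM in the APC-KO tumors and at 1609 and 1745 in the APC-WT tumors (log2 change -2.05 ± 0.151 SE, adjusted p = 0.00273). Adgre1, which encodes F4/80, stood at 271 and 283 in the APC-KO tumors and at 1277 and 1128 in the APC-WT tumors (-1.72 ± 0.151, adjusted p = 0.00318). Of the macrophage list 5 of 8 markers fell, against 24.4% of all expressed genes. The 6 fibroblast markers summed to 376 and 558 in the APC-KO tumors and to 1605 and 925 in the APC-WT tumors. Expected background made up 195 and 198 of these sums in the APC-KO tumors and 3.86 and 27.6 in the APC-WT tumors. Of the 3 fibroblast markers that were expressed 2 fell, against the same 24.4%. Neutrophil markers summed to 386 and 168 in the APC-KO tumors and to 54.2 and 186 in the APC-WT tumors, and epithelial markers to 286 and 351 in the APC-KO tumors and to 195 and 634 in the APC-WT tumors. T and NK cell markers, of which 0 of 7 were expressed, summed to 102 and 205 in the APC-KO tumors, with 62.3 and 63.3 expected from background, and to 18.3 and 41.4 in the APC-WT tumors, with 1.23 and 8.81 expected. Dendritic markers, of which 0 of 5 were expressed, summed to 217 and 216 in the APC-KO tumors, with 94.9 and 96.4 expected, and to 23.9 and 56.4 in the APC-WT tumors, with 1.88 and 13.4 expected. B cell markers summed to 81.9 and 90.2 in the APC-KO tumors, with 47.3 and 48.0 expected, and to 21.5 and 31.1 in the APC-WT tumors, with 0.936 and 6.69 expected. Endothelial markers summed to 201 and 198 in the APC-KO tumors, with 94.0 and 95.5 expected, and to 136 and 205 in the APC-WT tumors, with 1.86 and 13.3 expected. No marker of these lists was listed at 0, and the part of any of them in the lysosomal changes was not tested.

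**Figure D2:**
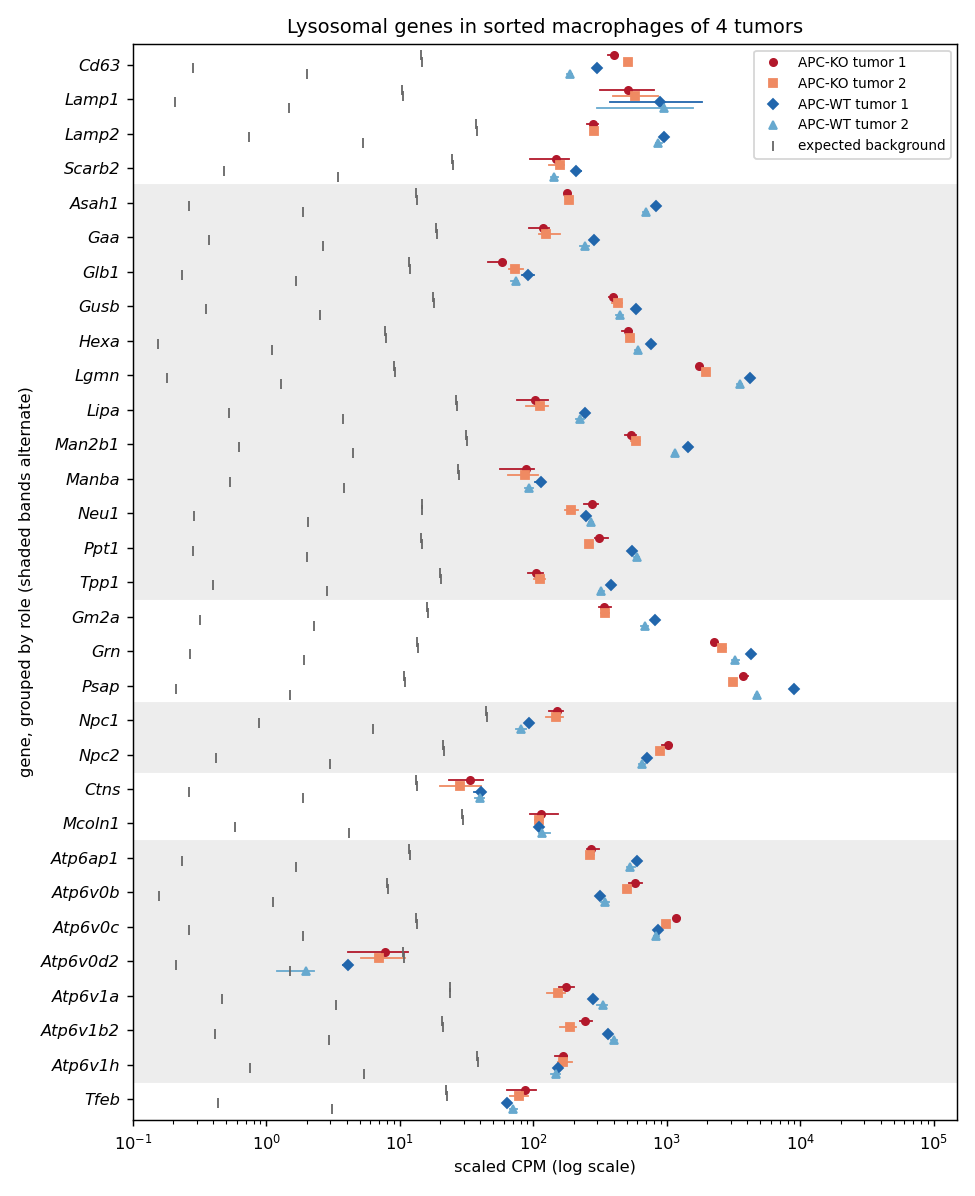
Scaled CPM (log scale) of the 31 lysosomal genes, grouped by role, in APC-KO tumors 1 and 2 (red) and APC-WT tumors 1 and 2 (blue); points are means and bars run from the lowest to the highest of 6 libraries, and grey ticks mark the background expected from silent receptor genes. Both APC-KO means lie below both APC-WT means for most hydrolases, Lamp1 has by far the widest bars, and Atp6v0d2 lies near its background.

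Of the 11 expressed hydrolases 7 fell and the other 4 did not pass the test, against 24.4% of all expressed genes that fell, and their median log2 change was -0.68. Among the 7, Gaa, Lipa and Tpp1 met the limits for an expressed gene in the APC-WT tumors alone, so their falls are a description. Asah1 (ENSMUSG00000031591, chromosome 8, 41340197 to 41374773, GRCm38), the acid ceramidase that splits ceramide into sphingosine and a fatty acid, had 179.6 ± 3.22 and 185 ± 7.56 scaled CPM in the APC-KO tumors and 832 ± 30.8 and 693 ± 20.4 in the APC-WT tumors (SD, n = 6 libraries each). Its 12 APC-KO libraries lay between 175 and 195 scaled CPM and its 12 APC-WT libraries between 662 and 871, with no overlap. The log2 change was -1.79 ± 0.161 (SE, n = 2 tumors each, adjusted p = 0.00334), and -2.04 without the length offset. It was the largest change of any member in either direction.

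Tpp1 (ENSMUSG00000030894, chromosome 7, 105744811 to 105752235), the tripeptidyl peptidase whose loss causes a neuronal ceroid lipofuscinosis, had 105 ± 10.4 and 111 ± 7.92 scaled CPM in the APC-KO tumors and 381 ± 12 and 322 ± 12.8 in the APC-WT tumors. Expected background made up 19.2% and 18.3% of its level in the APC-KO tumors and under 1% in the APC-WT tumors. With that background subtracted before the test the log2 change was -1.24, as it was with the counts as deposited (-1.24 ± 0.139, adjusted p = 0.00432). In the setting with background subtracted the scale and the length curve were computed again from the subtracted counts. Its changes therefore do not show the effect of the subtraction alone. Lgmn (ENSMUSG00000021190, chromosome 12, 102394084 to 102439813), the asparaginyl endopeptidase that processes cathepsins and antigens, was the most abundant hydrolase of the list per kb of transcript in all 4 tumors. It had 1728 ± 40.6 and 1948 ± 38.1 scaled CPM in the APC-KO tumors and 4154 ± 127 and 3505 ± 125 in the APC-WT tumors. Its libraries did not overlap between genotypes, and the log2 change was -1.18 ± 0.183 (adjusted p = 0.00847).

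Ppt1, Gaa, Lipa and Man2b1 fell by less. Ppt1 (ENSMUSG00000028657, chromosome 4, 122836242 to 122859175), which removes palmitate from proteins, had 309.7 ± 26 and 259 ± 8.99 scaled CPM in the APC-KO tumors and 549 ± 23.1 and 592 ± 21.9 in the APC-WT tumors (log2 change -0.80 ± 0.152, adjusted p = 0.0141). Gaa (ENSMUSG00000025579, chromosome 11, 119267887 to 119285454), the acid alpha-glucosidase that degrades glycogen, had 118 ± 17.4 and 123 ± 17.5 in the APC-KO tumors and 283 ± 10.6 and 243 ± 12.9 in the APC-WT tumors (-0.68 ± 0.131, adjusted p = 0.0144). Lipa (ENSMUSG00000024781, chromosome 19, 34492318 to 34527474), the acid lipase that hydrolyses cholesteryl esters and triglycerides, had 102 ± 17.9 and 113 ± 13.7 in the APC-KO tumors and 243 ± 9.15 and 223 ± 13.3 in the APC-WT tumors (-0.66 ± 0.123, adjusted p = 0.0137). For each of these 3 genes every APC-KO library lay below every APC-WT library. Background took 25.9% and 23.8% of the level of Lipa in the APC-KO tumors, and with background subtracted its change was -0.76. Man2b1, the lysosomal alpha-mannosidase that trims N-glycans, had 539 ± 36.3 and 586 ± 33.9 in the APC-KO tumors and 1441 ± 34.1 and 1142 ± 33.5 in the APC-WT tumors. Its log2 change of -0.73 ± 0.179 passed (adjusted p = 0.0282), but not in the setting with expected background subtracted (-0.50, adjusted p = 0.0707). In that setting the scale and the length curve were also computed again. Expected background made up 5.79% and 5.41% of the Man2b1 level in the APC-KO tumors and 0.0429% and 0.387% in the APC-WT tumors.

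Hexa, Glb1, Gusb and Neu1 did not pass the test. Hexa, the alpha subunit of beta-hexosaminidase, had 514 ± 30.4 and 525 ± 19.2 scaled CPM in the APC-KO tumors and 759 ± 21.7 and 610.0 ± 17.4 in the APC-WT tumors, with no overlap of libraries, and a log2 change of -0.51 (adjusted p = 0.0642). Gusb, the beta-glucuronidase, had 396 ± 22.3 and 432 ± 25.5 in the APC-KO tumors and 588 ± 23.2 and 448 ± 22.3 in the APC-WT tumors, and the libraries overlapped. Its log2 change was -0.08 (adjusted p = 0.747) and 0.047 with the principal isoform as the length. Glb1, the acid beta-galactosidase, had 58.0 ± 6.18 and 73.1 ± 6.66 in the APC-KO tumors and 90.4 ± 6.52 and 73.4 ± 3.86 in the APC-WT tumors (log2 change -0.04, adjusted p = 0.853). Neu1, the lysosomal sialidase, had 272 ± 23.9 and 190.3 ± 17.2 in the APC-KO tumors and 248 ± 8.83 and 269.7 ± 6.21 in the APC-WT tumors, so that the APC-KO tumors lay on either side of the APC-WT tumors. Its log2 change was 0.27 (adjusted p = 0.295) and -0.16 without the offset.

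Among the membrane proteins Lamp2 fell by a similar size in every pair of tumors. Lamp2 (ENSMUSG00000016534, chromosome X, 38401357 to 38456454), a glycoprotein of the limiting membrane and the receptor of chaperone-mediated autophagy in one isoform, had 279 ± 21.1 and 283 ± 8.11 scaled CPM in the APC-KO tumors and 957 ± 31.3 and 860.5 ± 37.6 in the APC-WT tumors. Its APC-KO libraries ranged from 253 to 306 and its APC-WT libraries from 822 to 994. The log2 change was -1.25 ± 0.142 (adjusted p = 0.00440), and over the 4 pairings of tumors across genotypes it ran from -1.36 to -1.17. Expected background made up 13.3% of the Lamp2 level in each APC-KO tumor. Lamp2 met the limits for an expressed gene in the APC-WT tumors alone, so its fall is a description.

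Lamp1 (ENSMUSG00000031447, chromosome 8, 13159161 to 13175338) behaved unlike every other member in its spread between libraries. Its 6 libraries read 317, 353, 356, 785, 795 and 454 scaled CPM in APC-KO tumor 1 and 562, 629, 393, 479, 524 and 849.9 in APC-KO tumor 2. They read 1821, 1149, 437, 1113, 438 and 373 in APC-WT tumor 1 and 1336, 1531, 1578, 384, 299 and 528 in APC-WT tumor 2. In APC-WT tumor 1 3 libraries read 1113 or more and 3 read 438 or less, in APC-WT tumor 2 3 read 1336 or more and 3 read 528 or less, and the genotypes overlapped. The coefficient of variation of Lamp1 was 43.5% and 27.4% in the APC-KO tumors and 64.8% and 63.7% in the APC-WT tumors, while the highest of the other 25 members was 22.3% and 14.2% in the APC-KO tumors and 7.21% and 7.31% in the APC-WT tumors. Of all expressed genes 47 (1.19%) exceeded 25% in all 4 tumors, and Lamp1 was the only member among them. The test on tumor sums gave Lamp1 a log2 change of -0.73 ± 0.151 (adjusted p = 0.0175), which does not see this spread. In the fit of libraries Lamp1 passed in 0 of the 4 tumor pairs, with adjusted p from 0.0690 to 0.186. Exons of Lamp1 share 249 bp with those of Grtp1 on the other strand, and whether counting used strand is not given in the sources used here.

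**Figure D3:**
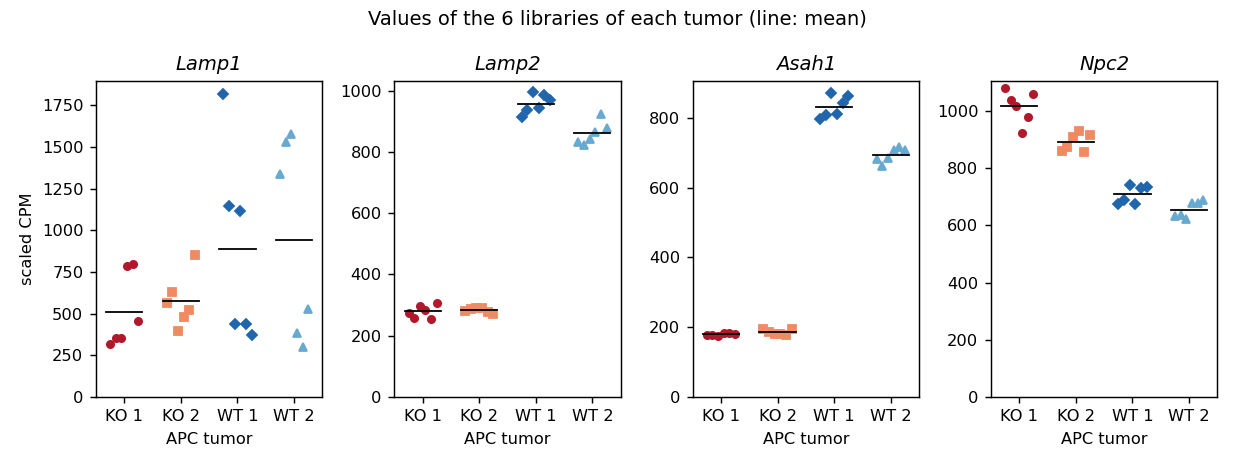
Scaled CPM of the 6 libraries of each tumor for Lamp1, Lamp2, Asah1 and Npc2, with a line at the tumor mean and each axis starting at 0. Lamp1 spans 299 to 1821 among APC-WT libraries and overlaps between genotypes, while the APC-KO libraries of Lamp2 and Asah1 all lie below, and those of Npc2 all above, the APC-WT libraries.

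Cd63 and Scarb2 complete the membrane proteins. Cd63 (ENSMUSG00000025351, chromosome 10, 128900989 to 128912822), a tetraspanin of late endosomes and exosomes, had 399 ± 22.3 and 512 ± 11.1 scaled CPM in the APC-KO tumors and 298 ± 11.1 and 187 ± 7.25 in the APC-WT tumors. All APC-KO libraries lay above all APC-WT libraries. The log2 change was 1.21 ± 0.291 (adjusted p = 0.0268) with the longest transcript of 2894 bp as the length, but 0.02 (adjusted p = 0.967) with the principal isoform of 1109 bp, and which transcript was in use was not measured here. A pseudogene copy, Cd63-ps, drew counts equal to 15% and 14.0% of those of Cd63 in the APC-KO tumors and to 12.7% and 12.6% in the APC-WT tumors, so reads may be shared between them. Scarb2, the receptor that carries glucocerebrosidase to lysosomes, had 147 ± 29.5 and 159 ± 14.1 in the APC-KO tumors and 210.0 ± 10.7 and 143 ± 6.86 in the APC-WT tumors, and its log2 change was 0.33 (adjusted p = 0.217) with the offset and -0.20 without it.

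Among the activators and other soluble proteins 1 of 3 fell, a count near the 24.4% of all expressed genes that fell. Psap, the precursor of the saposins that present sphingolipids to hydrolases, ranked first per kb of transcript in all 4 tumors. It had 3740.3 ± 205 and 3125 ± 82.2 scaled CPM in the APC-KO tumors and 8915 ± 164 and 4731 ± 129.7 in the APC-WT tumors. Both APC-KO tumors lay below both APC-WT tumors, but the APC-WT tumors differed from each other by a log2 change of -0.92 (tumor 2 over tumor 1), and the genotype did not pass (-0.75 ± 0.348, adjusted p = 0.134). Without APC-WT tumor 2 the change was -1.14 (adjusted p = 0.0285), and without APC-WT tumor 1 it was -0.22 (adjusted p = 0.551). Grn, the progranulin that is cut into granulins in the lysosome, had 2257 ± 68.3 and 2596 ± 97.8 in the APC-KO tumors and 4289.6 ± 186 and 3261 ± 162 in the APC-WT tumors (log2 change -0.53, adjusted p = 0.0918). Gm2a, the GM2 ganglioside activator, had 339.7 ± 27.2 and 342 ± 18.8 in the APC-KO tumors and 812 ± 27.8 and 682 ± 31.4 in the APC-WT tumors and fell (-0.62 ± 0.151, adjusted p = 0.0269). It did not pass with expected background subtracted and the scale and length curve computed again (-0.38, adjusted p = 0.0964). Psap, Grn and Lgmn together made up 48.0% and 48.7% of the counts of the members in the APC-KO tumors and 58.6% and 50.9% in the APC-WT tumors.

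The pair of proteins that hand cholesterol out of the lysosome stood apart from the hydrolases. Npc2 (ENSMUSG00000021242, chromosome 12, 84754562 to 84773152), the soluble cholesterol carrier, had 1017 ± 58.0 and 892 ± 31.9 scaled CPM in the APC-KO tumors and 708 ± 31.3 and 655 ± 28.5 in the APC-WT tumors. The lowest APC-KO library read 858 and the highest APC-WT library 743. The rise was 0.88 ± 0.152 on the log2 scale (adjusted p = 0.0112), 0.51 without the length offset (adjusted p = 0.0418) and 0.99 with the principal isoform (adjusted p = 0.00948). Of the 4 members that rose Npc2 alone passed under all 3 of these treatments, as did 15% of the 3769 genes with a principal isoform. The longest transcript of Npc2 is also its principal isoform (3299 bp), so the choice between them did not change its own length. For Cd63, Atp6v0c and Atp6v1h the longest transcript was more than 1.5 times the principal isoform. Npc1, the membrane protein that takes cholesterol over from NPC2, lay below the limit for expressed genes. It had 149.8 ± 13.8 and 147 ± 14.5 in the APC-KO tumors and 93.3 ± 3.64 and 80.0 ± 5.88 in the APC-WT tumors, of which 44.0 and 44.7 in the APC-KO tumors and 0.872 and 6.23 in the APC-WT tumors were expected from background. Its libraries did not overlap, and the values less background were 106 and 102 in the APC-KO tumors and 92.4 and 73.8 in the APC-WT tumors.

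Of 6 expressed members of the proton pump 1 fell, 2 rose and 3 did not pass, counts near the 24.4% lower and 24.8% higher among all expressed genes. Atp6ap1 (ENSMUSG00000019087, chromosome X, 74297097 to 74304721), an accessory subunit that helps to assemble the pump, had 272 ± 21.5 and 265 ± 13.1 scaled CPM in the APC-KO tumors and 594 ± 23.7 and 533 ± 26.2 in the APC-WT tumors. Its libraries did not overlap, and it fell by 1.05 on the log2 scale (SE 0.138, adjusted p = 0.00591) with and without the offset. The catalytic subunit gene Atp6v1a had 174 ± 16.2 and 152 ± 17.5 in the APC-KO tumors and 277 ± 11.3 and 333 ± 20.6 in the APC-WT tumors. The nucleotide-binding subunit gene Atp6v1b2 had 245 ± 18.8 and 189 ± 18.2 in the APC-KO tumors and 361 ± 10.1 and 404 ± 14.7 in the APC-WT tumors. For both, all APC-KO libraries lay below all APC-WT libraries. Neither passed with the offset (log2 changes -0.40 and -0.52, adjusted p = 0.0863 and 0.0643), and both did without it (-0.89 and -0.79, adjusted p = 0.00666 and 0.0181).

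The calls of 3 other pump genes depended on the transcript length used. Atp6v1h (ENSMUSG00000033793, chromosome 1, 5070018 to 5162529), a regulatory subunit of the peripheral domain, had 165 ± 12.2 and 167 ± 17.0 scaled CPM in the APC-KO tumors and 153 ± 4.10 and 147 ± 8.86 in the APC-WT tumors, with overlapping libraries. Its log2 change was 0.69 ± 0.0956 (adjusted p = 0.00653) with the longest transcript of 4829 bp, 0.20 (adjusted p = 0.149) with the principal isoform of 2049 bp and 0.17 (adjusted p = 0.183) without an offset. Atp6v0c, the proteolipid that forms most of the proton-carrying ring, had 1174 ± 46.0 and 987 ± 11.8 in the APC-KO tumors and 853 ± 36.7 and 827 ± 28.9 in the APC-WT tumors. Its log2 change was 0.57 ± 0.159 (adjusted p = 0.0397) with the longest transcript of 2567 bp and -0.43 (adjusted p = 0.0775) with the principal isoform of 1183 bp. Its pseudogene Atp6v0c-ps2 drew counts equal to 12.1% and 12.3% of those of Atp6v0c in the APC-KO tumors and to 12.2% and 12.3% in the APC-WT tumors. Atp6v0b, another ring subunit with a transcript of 1000 bp, had 577 ± 45.6 and 505 ± 18.9 in the APC-KO tumors and 318 ± 8.64 and 345 ± 16.9 in the APC-WT tumors, with no overlap of libraries. Its log2 change was 0.75 without the offset (adjusted p = 0.0126) and -0.36 with it (adjusted p = 0.0876).

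**Figure D4:**
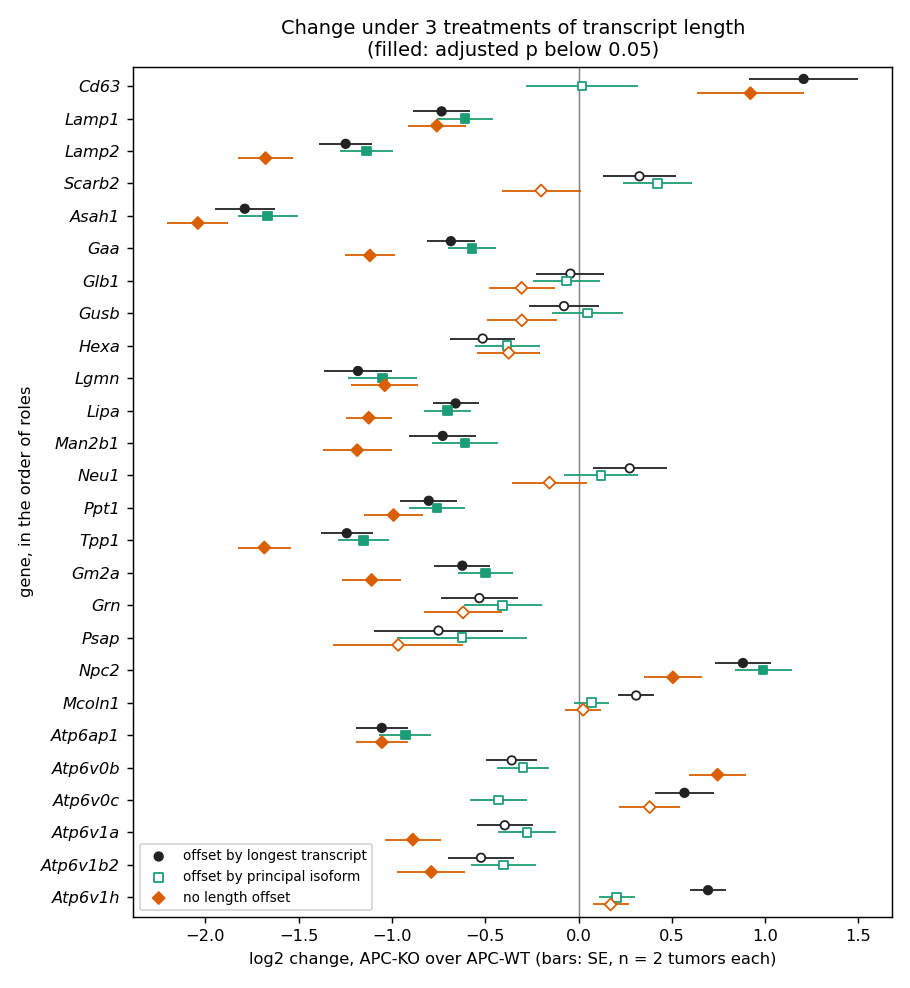
Log2 change of APC-KO over APC-WT tumors (n = 2 each; bars are SE) for the 26 expressed members, with an offset by the longest transcript (circles), by the principal isoform (squares) or with none (diamonds); filled symbols have an adjusted p below 0.05. Asah1, Lamp2 and Tpp1 lie farthest to the left in all 3 treatments, while Cd63, Atp6v0c and Atp6v0b move across or up to 0.

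The remaining members lay low. Mcoln1, the calcium channel whose opening activates TFEB, had 114 ± 25.4 and 110.2 ± 6.12 scaled CPM in the APC-KO tumors and 109.5 ± 4.10 and 115 ± 8.44 in the APC-WT tumors. Its libraries overlapped, and its log2 change was 0.31 (adjusted p = 0.0516) with the offset and 0.02 without it. Tfeb itself lay below the limit for expressed genes, with 85.9 ± 16.8 and 78.5 ± 7.86 in the APC-KO tumors and 63.4 ± 2.89 and 70.5 ± 3.43 in the APC-WT tumors. Less the expected background these values were 63.9 and 56.1 in the APC-KO tumors and 62.9 and 67.3 in the APC-WT tumors, so the excess in the APC-KO tumors was no larger than the background there. Manba, the beta-mannosidase, had 87.3 ± 17.9 and 87.2 ± 14.7 in the APC-KO tumors and 114 ± 6.32 and 93.3 ± 4.84 in the APC-WT tumors, and Ctns, the cystine exporter, had 33.4 ± 6.83 and 28.2 ± 6.83 in the APC-KO tumors and 40.7 ± 3.16 and 40.0 ± 2.59 in the APC-WT tumors. With lower limits of 5 CPM and 3 times the background on the scale and length curve of the expressed genes, a setting chosen after the data had been seen, which let in 9814 genes of which 57.6% rose and 11.4% fell, Npc1 rose by 1.31 and Tfeb by 0.43 (adjusted p = 0.00138 and 0.0307), and Manba and Ctns did not pass (adjusted p = 0.217 and 0.572). With all genes on the scale of the expressed genes and no offset, Npc1 was at 0.80 (adjusted p = 0.00220) and Tfeb at 0.34, which did not pass (adjusted p = 0.0996). Atp6v0d2, a pump subunit known from osteoclasts and activated macrophages, read 7.71 ± 2.88 and 7.02 ± 2.17 in the APC-KO tumors against an expected background of 10.6 and 10.7, and 4.10 ± 0.196 and 1.99 ± 0.431 in the APC-WT tumors against 0.209 and 1.49.

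Among the 26 expressed members both APC-KO tumors lay below both APC-WT tumors in scaled CPM for 18 and above them for 5, where 42.3% and 40.9% of all expressed genes did so. All 12 APC-KO libraries lay below all 12 APC-WT libraries for 15 members and above them for 4, against 28.4% and 28.1% of expressed genes. Without the offset 13 members fell and 3 rose, against 30.7% and 32.7% of expressed genes, and with the principal isoform 11 fell and 1 rose, against 22% and 23.4%. A total of 11 members fell under all 3 treatments, as did 17.5% of the 3769 genes that could be tested in each. Without Lamp1 these were 10 genes with log2 changes from -1.79 to -0.62, whose libraries did not overlap and which passed in all 4 tumor pairs. Of all expressed genes 28.4% had every APC-KO library below every APC-WT library, and 41.4% to 42.6% fell in a single tumor pair. The p-values of the pairs measure only the spread between libraries of a tumor. The 10 genes include Lamp2, Gaa, Lipa and Tpp1, which met the limits in the APC-WT tumors alone. The 3 members whose longest transcript exceeds 1.5 times the principal isoform (Cd63, Atp6v0c and Atp6v1h) are not among the 11 that fell. In the plot of change against length the other 25 expressed members lie at longer transcripts than Atp6v0b, at 1000 bp, and changes before the offset were lower for longer transcripts.

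**Figure D5:**
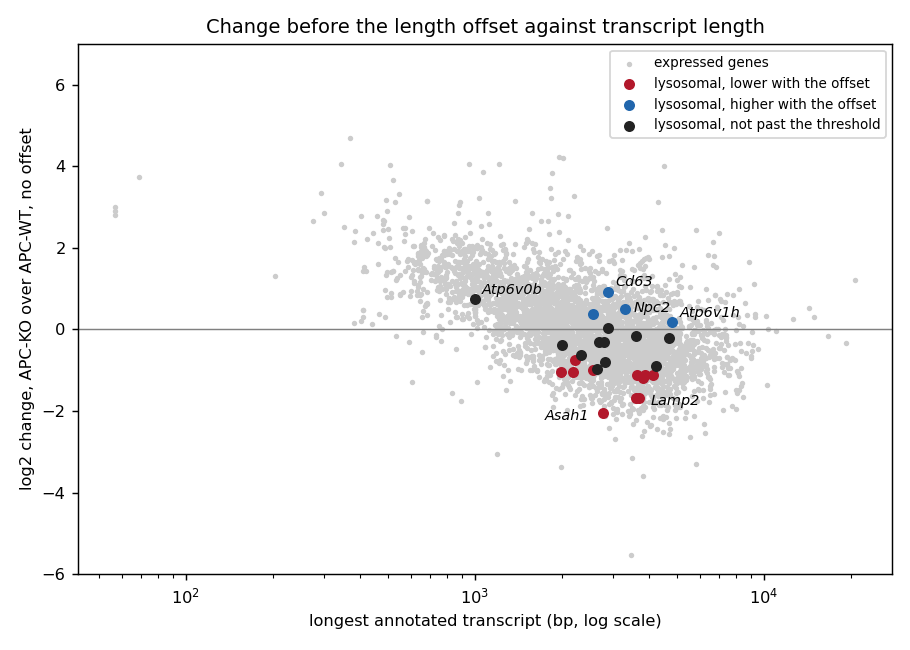
Log2 change of APC-KO over APC-WT without the length offset (vertical axis) against the longest annotated transcript in bp (log scale) for 3938 expressed genes (grey) and the 26 expressed lysosomal genes, coloured by their call with the offset. Changes fall with length across the grey cloud; Atp6v0b, at 1000 bp, lies within the cloud of short genes, and Asah1 and Lamp2 lie at the lower edge for their length.

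The fit of single libraries gave the change in each pair of tumors. In APC-KO tumor 1 over APC-WT tumor 1 6 members rose and 18 fell, against 38.9% and 42.6% of expressed genes. In APC-KO tumor 1 over APC-WT tumor 2 7 rose and 16 fell, against 38% and 41.8%. In APC-KO tumor 2 over APC-WT tumor 1 5 rose and 17 fell, against 38.9% and 42.4%, and in APC-KO tumor 2 over APC-WT tumor 2 8 rose and 16 fell, against 39.1% and 41.4%. These pairs share tumors. A total of 23 of the 26 members had 1 sign in all 4 pairs, and the exceptions were Glb1, Gusb and Neu1. In scaled CPM, which carry no offset, both APC-KO tumors lay below both APC-WT tumors for 42.3% of expressed genes. They lay above them for 40.9%, so a shared sign was common among all expressed genes as well.

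Tumors of one genotype differed too. In APC-WT tumor 2 over APC-WT tumor 1 3 members rose and 16 fell, against 19.6% and 28.1% of expressed genes. The largest of these falls were Psap (-0.92), Cd63 (-0.69) and Scarb2 (-0.49), and the members that rose were Atp6v1a (0.29), Atp6v1b2 (0.15) and Ppt1 (0.11). In APC-KO tumor 2 over APC-KO tumor 1 6 members rose and 8 fell, against 19.2% and 15.7% of expressed genes, with Neu1 (-0.50) and Cd63 (0.37) at the ends. The pump subunits Atp6v1b2 (-0.36) and Atp6v0c (-0.25) fell there, and Glb1 (0.35) and Grn (0.20) rose.

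Of the 7 expressed members with TCACGTG in the promoter 3 fell (Lamp1, Gaa and Lgmn) and the other 4 did not pass, with a median log2 change of -0.40. Of the 16 expressed members whose promoter lacked it 7 fell, 3 rose and 6 did not pass, with a median of -0.58. Of all expressed genes 24.4% fell and 24.8% rose, and the difference between members with and without the E-box was not tested.

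Genes of the same pathways outside the list are read against the same 24.4% lower and 24.8% higher among all expressed genes. Of 27 other lysosomal hydrolases 21 were expressed, of which 10 fell (47.6%) and 4 rose (19.0%), with a median of -0.50. Plbd1, a phospholipase B-like protein, had 245 and 207 scaled CPM in the APC-KO tumors and 647 and 739 in the APC-WT tumors (log2 change -1.68 ± 0.164, adjusted p = 0.00360), and Ppt2, a thioesterase, had 78.8 and 76.8 in the APC-KO tumors and 112 and 120.0 in the APC-WT tumors (-0.87 ± 0.0944, adjusted p = 0.00413). Dnase2a, which digests the DNA of engulfed nuclei, had 158 and 166 in the APC-KO tumors and 100.4 and 70.9 in the APC-WT tumors and rose (1.42 ± 0.191, adjusted p = 0.00621), though not with the principal isoform (0.70, adjusted p = 0.0514). Plbd2 rose with the offset (0.54, adjusted p = 0.0172) and not without it (0.03). Of 20 other membrane proteins and transporters 14 were expressed, of which 6 fell (42.9%) and 2 rose (14.3%), with a median of -0.32. Clcn7, the chloride-proton exchanger of lysosomes, fell (log2 change -1.10, adjusted p = 0.00436), as did Cd68, a macrophage glycoprotein of the lysosomal membrane (adjusted p = 0.00502; -0.26 without the offset, which did not pass), while Cln3 rose by 0.68 (adjusted p = 0.00842) and Glmp by 0.60 (adjusted p = 0.0147; 0.09 without the offset).

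Of 11 other V-ATPase subunits 2 fell (18.2%) and 3 rose (27.3%), near the 24.4% and 24.8% of all expressed genes (median -0.05). Atp6ap2, the second accessory subunit, had 155 and 146 scaled CPM in the APC-KO tumors and 348 and 294 in the APC-WT tumors and fell (log2 change -0.97, adjusted p = 0.00776). Atp6v0a2 fell by 0.61 (adjusted p = 0.0247), and Atp6v1d and Atp6v0e rose by 0.66 and 0.75 (adjusted p = 0.00992 and 0.0148). Without the offset Atp6v1d was at 0.22 and did not pass (adjusted p = 0.139). Of 15 regulators and anchors of mTORC1 9 were expressed, of which 1 fell (11.1%) and 3 rose (33.3%) with the offset, 3 fell and 5 rose without it, and 1 fell and 1 rose with the principal isoform. Rragc, a Rag GTPase, fell by 0.67 (adjusted p = 0.00890), and the Ragulator subunit Lamtor4 rose by 0.71 (adjusted p = 0.00862), while Lamtor3 rose by 0.68 (adjusted p = 0.0148) but was at -0.23 with the principal isoform. Of 14 genes that sort lysosomal enzymes 10 were expressed, of which 5 fell (50%) and 2 rose (20%), with a median of -0.43. M6pr, the cation-dependent mannose 6-phosphate receptor, had 209 and 192 in the APC-KO tumors and 513 and 547 in the APC-WT tumors and fell by 1.09 (adjusted p = 0.00492). The retromer subunits, which return such receptors to the Golgi, moved apart: Vps26a fell by 1.18 (adjusted p = 0.00457) and Vps29 rose by 1.22 (adjusted p = 0.00290), each with the same sign and call without the offset. Ap3d1 of the AP-3 adaptor rose by 0.47 with the offset (adjusted p = 0.0252) and was at -0.06 without it.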

How the data were processed

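The authors deposited whole-number counts for 55487 Ensembl genes in 24 libraries. The submitters' processing notes name bcl2fastq 2.20.0, HISAT2, StringTie and the build mm9; their roles and settings, the annotation and the use of strand are not given in the sources used here. Symbols, lengths and coordinates came from GENCODE M21 (GRCm38) for 55227 IDs, so the coordinates are not of the build in the notes, and promoters came from RefSeq (GRCm38.p6).

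From the deposited counts, library sizes were the TMM-scaled totals of 3938 expressed genes (edgeR 4.0.16, R 4.3.3). Background per kb of exon was taken from 1974 olfactory and vomeronasal receptor genes, and 12 satellite-like loci, with at least 0.3 of their 15-mers shared with Gm10800, were left out. The genotype test was edgeR's quasi-likelihood test on counts summed over the 6 libraries of a tumor, 2 against 2, with an offset from a loess fit (span 0.5, prior count 2) of each tumor's log2 level on log2 length of the longest transcript. Pairs of tumors were tested on 24 libraries with 1 mean per tumor and the same offsets. Adjusted p-values are Benjamini-Hochberg over all expressed genes, at 0.05, and are from edgeR where no tool is given. The SE of a change was obtained from the change and its F statistic. The tests were tried on simulated counts. DESeq2 1.42.0 and limma 3.58.1 (voom) served as alternatives, and summaries and figures used Python 3.11.15, pandas 2.3.3, numpy 2.4.6 and matplotlib 3.10.9.

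The members, the 5 pathway lists, the marker lists, the scale and the offset were chosen with earlier results of these data known. Full values are given for up to 12 members past the threshold with 1 sign in all 4 tumor pairs, by smallest p, for at least 1 member of each role and for every member below the limit, and other members more briefly. From each pathway list up to 2 genes each way with the smallest p are named.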

Additional observations from a re-analysis of the deposited data

Results flagged for a closer look

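In 7 of 124 groups of 6 libraries (31 genes in 4 tumors; 5.65%) 1 library lay far from the other 5, where chance alone gives such a mark in about 1 group in 20. In APC-KO tumor 1, Glb1 read 46.0 scaled CPM in library 6, against 56.9 to 62.6 in the others, and Ppt1 read 361 in library 3, against 291 to 312. In APC-KO tumor 2, Gaa read 157 in library 3, against 109 to 125, Grn read 2786 in library 1, against 2516 to 2598, Lgmn read 1875 in library 6, against 1949.7 to 1983, and Scarb2 read 132 in library 6, against 156 to 169.9. In APC-WT tumor 2, Mcoln1 read 132 in library 6, against 110.4 to 114. No cause was tested.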

How the results depend on the processing

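Log2 changes of 26 members were recomputed under 17 alternatives, of which 2 were chosen after seeing the data. Asah1, Lamp2 and Tpp1 kept their direction in every alternative. Without any 1 tumor their log2 changes ran from -1.92 to -1.64, from -1.32 to -1.17 and from -1.36 to -1.12. Lamp2 and Tpp1 met the limits for an expressed gene in the APC-WT tumors alone, so their falls are a description. Without 1 tumor, expressed genes that rose numbered 437 to 928 and those that fell 352 to 980, and members that rose 0 to 4 and that fell 4 to 13; the lone tumor of a genotype is then assumed to vary like the others. Without APC-KO tumor 1 or 2 expressed genes numbered 467 and 437 higher and 352 and 371 lower. With TMM computed from every gene the median expressed gene stood at -4.01 and gave 0 expressed genes and 0 members higher or lower by edgeR, with 3580 expressed genes and 20 members lower at an unadjusted p below 0.05. With lower limits for expressed genes and a length curve of their own the median moved to -0.88, and 2614 genes rose and 3458 fell, with 0 members higher (0 at an unadjusted p below 0.05) and 21 lower. On the scale and curve of the expressed genes, 5657 rose, members being 5 and 11; this setting and RLE without the offset were the ones added. With the principal isoform 1 member rose, against 23.4% of the 3769 genes tested. Without the offset 5 rather than 8 members rose in APC-KO tumor 2 over APC-WT tumor 2, where 39.1% of expressed genes rose with the offset. DESeq2 called 16 members lower and 5 higher, against 1154 and 1129 of the 3938 expressed genes. With limma-voom these were 11 and 4 members, against 949 and 987 expressed genes. RLE with the offset gave the same calls as the main test by construction, since the length curve takes up the scale. With expected background subtracted, and the scale and length curve computed again from the subtracted counts, 9 members fell (34.6% of the 26) and 4 rose (15.4%). In that setting 944 of the 3938 expressed genes fell and 950 rose.

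Signs turned for 6 members. Atp6v0b stood at 0.75 without the offset (also with all genes on the scale of expressed genes, and with no filter on low counts), at 0.73 by RLE without the offset, and, relative to the median expressed gene, at 0.77 with TMM over all genes and at 0.24 with lower limits. Neu1 stood at -0.16 in the first 3 of these settings, -0.17 by RLE and -0.13 by TMM over all genes, and Scarb2 at -0.20, -0.21 and -0.36. Atp6v0c stood at -0.43 with the principal isoform. Gusb stood at 0.047 with the principal isoform and 0.081 with background subtracted, and from -0.27 to 0.14 without 1 tumor, where Glb1 ran from -0.23 to 0.12. The causes were not tested.

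Libraries with the same number did not deviate together: correlations of 36 such pairs ran from -0.468 to 0.719, with 9 above 0.1, and 3 of 24 libraries correlated best with their own number. A replicate block changed 2 of 156 member calls, Atp6v1a in APC-KO tumor 2 over APC-KO tumor 1 (adjusted p = 0.0613) and Gaa in APC-WT tumor 2 over APC-WT tumor 1 (adjusted p = 0.0522). Expected background exceeded 10% of the level of 9 expressed members in both APC-KO tumors.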
